A study of Homo sapiens with 6 samples.

Results

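The 10 genes described here, 9 of the PARP family and the ubiquitin ligase gene DTX3L, were followed in human neural stem cells. They were chosen by symbol (PARP1, PARP2, PARP8, PARP9, PARP10, PARP11, PARP12, PARP14, ZC3HAV1 and DTX3L), and all 10 were present among the 26485 symbols of the deposited tables. RNA was sequenced from AF22, an established human neural stem cell line of neuroepithelial character derived by way of induced pluripotency, in 6 libraries. The 3 control libraries come from cells with a control short hairpin RNA (shControl), whose genotype label is WT. The 3 knockdown libraries come from cells labelled COMMD3/COMMD3-BMI1_KD, and the labels do not describe the knockdown reagent, whether it is 1 hairpin or several, or whether replicates were separate cultures. P-values therefore set the difference between groups only against the spread of these libraries, and that spread may be technical.

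PARP enzymes use NAD+ to attach ADP-ribose to proteins and nucleic acids. PARP1 and PARP2 build long chains at DNA breaks, while most other members add a single ADP-ribose unit or have lost the activity. A group of the single-unit and inactive members, with DTX3L, is known to be induced by interferon and to act against viruses, and several of them carry macrodomains, which bind ADP-ribose. Interferon signals through a transcription factor complex that contains STAT2 and IRF9 and binds a DNA element near the start of responding genes.

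The libraries held between 7294687 and 11579849 counts. COMMD3, named in the knockdown label, had a mean of 29.67 ± 2.04 CPM (counts scaled to library size) in the control group. In the knockdown group it had 11.55 ± 1.22 CPM (± is the SD and n = 3 throughout). COMMD3-BMI1 was listed at 0 in all 6 libraries. All 10 neural stem cell markers looked at were expressed. Their summed level was 2600 to 2770 CPM in control and 2580 to 2690 CPM in knockdown. By the same test, 1 was higher (MSI1) and 4 were lower (SOX2, HES1, PROM1 and NOTCH1). Over all tested genes 15.3% were higher and 18.1% lower. Of 14 leukocyte markers 7 had no count in any library, PTPRC (CD45) had 0.0381 CPM in control and none in knockdown, and the list summed to 3.78 to 5.6 CPM in control and 4.07 to 4.32 CPM in knockdown. A list of 10 fibroblast and endothelial markers summed to 332 to 356 CPM in control and 253 to 286 CPM in knockdown. Of 9 tested, 6 were lower and COL1A1 was higher, beside the same shares of 18.1% lower and 15.3% higher. None of the 10 was at 0 throughout. The part of such cells in the results was not tested, and in bulk RNA a change in the number of cells of a type and a change in RNA per cell cannot be told apart.

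Of the 10 members, 6 were higher in knockdown: PARP9, DTX3L, PARP14, PARP12, PARP10 and ZC3HAV1. PARP8 was lower, and PARP1, PARP2 and PARP11 did not pass the test. The rises were between 3.66-fold (PARP14) and 7.66-fold (DTX3L), and the fall of PARP8 was 1.21-fold. All 10 members passed the filter on low counts. Calls are from edgeR's quasi-likelihood test across 13632 genes with Benjamini-Hochberg adjusted p under 0.05, by which 15.3% of tested genes were higher and 18.1% lower in knockdown. The 6 rises thus stand against a share of 15.3%, while a single fall among 10 members is near the share of 18.1%. The libraries of the 2 groups did not overlap for 8 members, all but PARP2 and PARP11, and for 44.3% of all tested genes.

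**Figure D1:**
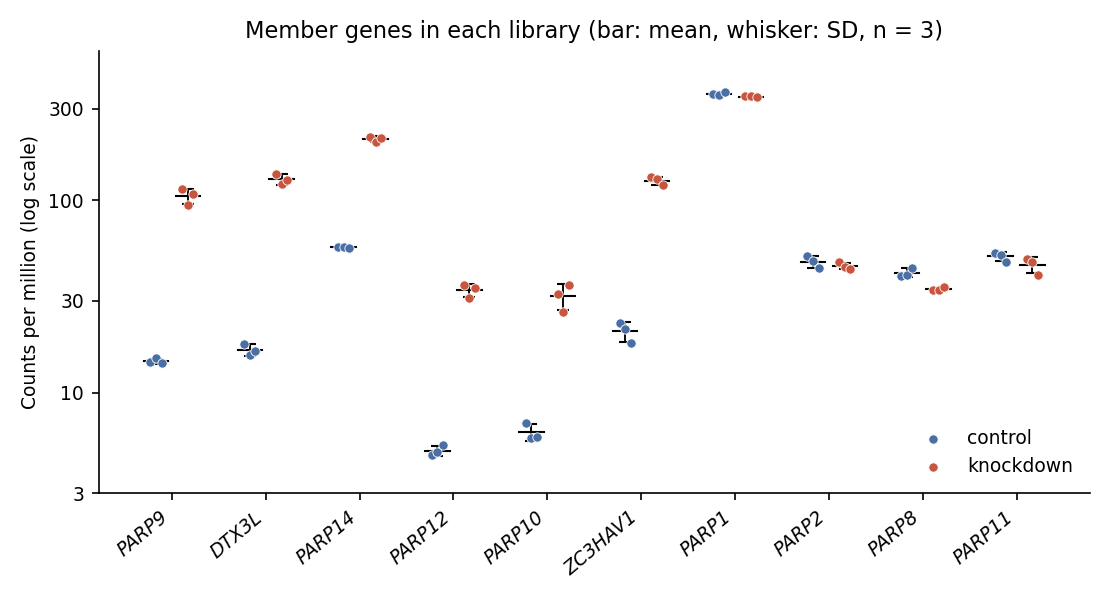
Level of each member in each library, in CPM on a log scale; points are libraries, horizontal bars are group means and whiskers are SD (n = 3). The 6 genes on the left are several-fold higher in all 3 knockdown libraries, and the 4 on the right lie close together in both groups.

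PARP9, DTX3L and PARP14 are neighbours on chromosome 3. PARP9 (ENSG00000138496) lies at 122527924 to 122564577 on the minus strand and DTX3L (ENSG00000163840) at 122564238 to 122575203 on the plus strand, so the genes run away from each other and overlap at their first exons. PARP14 (ENSG00000173193) follows at 122680618 to 122730840 on the plus strand (GRCh38, GENCODE v29). RefSeq promoter windows, from 250 bases before to 50 bases after a gene start (GRCh38.p14), were matched for 9 of the 10 members, all but PARP10. They were searched on both strands for GAAANNGAAA, the core of the element bound by the complex that contains STAT2 and IRF9. The stretches that hold it are shown because they lie at the starts of genes that rose together, with the match in capitals, each read 5′ to 3′ on the strand of its gene, so that a match on the other strand reads as its reverse complement.
DTX3L, chr3:122564322-122564351, plus strand: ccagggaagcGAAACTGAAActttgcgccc
PARP9, chr3:122564322-122564351, minus strand: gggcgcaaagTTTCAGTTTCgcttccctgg
PARP14, chr3:122680800-122680829, plus strand: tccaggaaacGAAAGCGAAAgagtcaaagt
PARP12, chr7:140062942-140062971, minus strand: ccggggccgcTTTCGGTTTCgtttcccgcc

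The first 2 stretches are the same 30 bases read from either strand. One match, at 122564332 to 122564341, thus begins 6 bases upstream of the DTX3L start and 41 bases upstream of a PARP9 start. In GENCODE v29 it falls in a noncoding part of the first exon of DTX3L and in an intron of 2 PARP9 transcripts. The matches of PARP14 and PARP12 begin 29 and 10 bases upstream of their starts, each in a noncoding exon part of 1 longer transcript of the gene. Of the 5 rising members with a window, 4 held the letters, at 3 distinct sites, and ZC3HAV1 did not. None of PARP1, PARP2, PARP8 and PARP11 held them, nor did any of 6 other PARP family genes with a window. Over all genes with a window the share was 4.38% (1195 of 27305 genes). The letters TTCNNNGAA, the element of the interferon-gamma response, were found in the windows of PARP14, ZC3HAV1 and PARP2 among the members and of PARP15 among the 6 other family genes, against 9.38% of genes, and at no place overlapped the first motif. A match is a string of letters, and binding was not measured here.

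PARP9, a macrodomain protein whose PARP domain is catalytically weak or inactive and which works bound to DTX3L, had 14.5, 15.1 and 14.2 CPM in control replicates 1 to 3. In knockdown replicates 1 to 3 it had 114, 94.6 and 108 CPM. The lowest knockdown library was 6.27 times the highest control library. The log2 fold change was 2.85 (SE 0.0761, edgeR adjusted p = 7.08e-24), the 43rd highest of 13632 genes.

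DTX3L, a ubiquitin ligase of the Deltex family, had 18, 15.7 and 16.4 CPM in the control libraries and 137, 122 and 127 CPM in the knockdown libraries. The rise was the largest among the members on the log2 scale, at 2.94 (SE 0.0668, edgeR adjusted p = 1.06e-25). Both genes of the pair were highest in knockdown replicate 1 and lowest in knockdown replicate 2, as were PARP14 and PARP12. The log2 ratio of DTX3L to PARP9 counts, which needs no scaling between libraries, was 0.191 ± 0.129 in control and 0.290 ± 0.0656 in knockdown. This difference of 0.0985 was smaller than the control SD (exact permutation test, two-sided, p = 0.4, adjusted over 5 such tests p = 0.625). Of the exon bases of PARP9 2.43%, and of those of DTX3L 3.70%, are shared with the other gene on the opposite strand. The counting step's strand setting is not given in the sources used here, so reads from those bases may have been counted for either gene.

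PARP14, a large single-unit transferase with macrodomains, was the most abundant of the 6 per library, at 57.2, 57.2 and 56.5 CPM in control and 214, 200 and 212 CPM in knockdown. It gained 151.8 CPM, more than any other member, yet its fold was the smallest of the 6 (log2 fold change 1.87, SE 0.0481, edgeR adjusted p = 3.14e-24). Within each library its log2 ratio to PARP9 was 1.98, 1.92 and 2.00 in control and 0.910, 1.08 and 0.979 in knockdown, a difference of −0.978 with no overlap between groups. With 3 libraries against 3 the exact permutation test cannot go below p = 0.1, which it reached here (two-sided, adjusted p = 0.25 over 5 tests). PARP15, which lies between DTX3L and PARP14 and encodes another macrodomain transferase, had 2 counts over the control libraries and none over the knockdown libraries, too few to compare.

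None of the 3 tested genes on either side of the trio was higher. KPNA1, an importin, lies 13 kb beyond PARP9 and was lower (306.1 to 281.8 CPM, log2 fold change −0.12, edgeR adjusted p = 0.0382). HSPBAP1 lies 9.16 kb beyond PARP14 and did not pass (13.36 to 14.26 CPM, log2 fold change 0.08, edgeR adjusted p = 0.611). WDR5B, FAM162A and DIRC2 did not pass, and SEMA5B, a semaphorin, was lower (log2 fold change −0.47, edgeR adjusted p = 5.10e-10). Taking the 3 nearest tested genes on each side of the 6 rising members, without the members themselves, gave 24 genes. Of these 4 were higher and 5 lower, near the shares of 15.3% and 18.1% over all tested genes. Their median log2 fold change was 0.02, against 0.00 over all tested genes. The 4 that were higher were GRINA, EXOSC4, SLC37A3 and MKRN1, at log2 fold changes of 0.19 to 0.26.

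**Figure D2:**
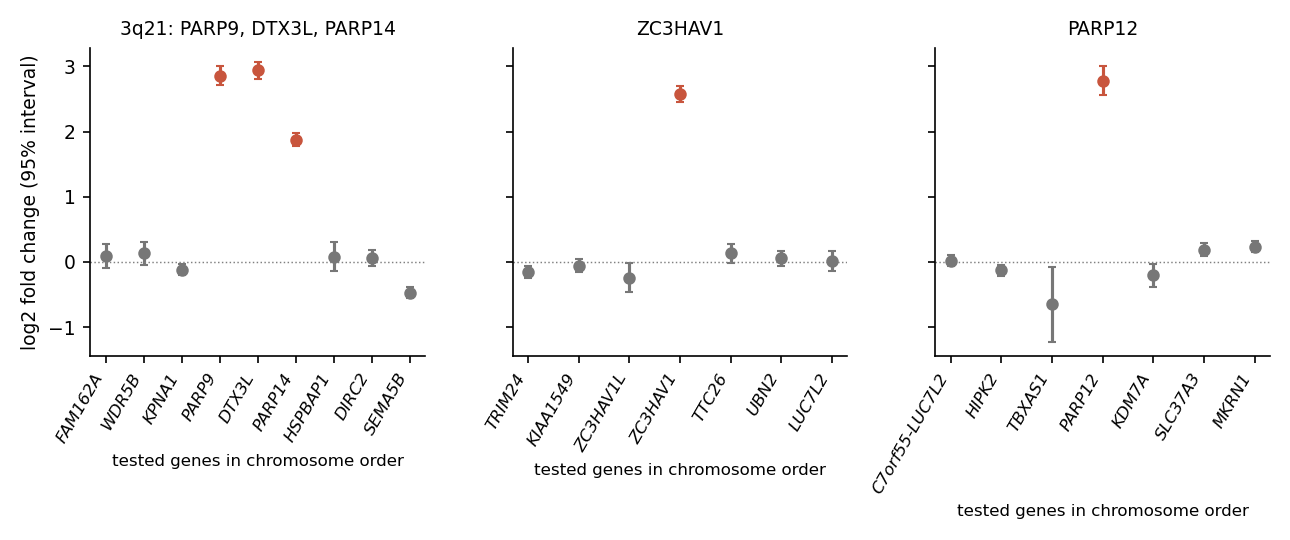
Log2 fold changes with 95% intervals for the nearest tested genes in chromosome order around PARP9, DTX3L and PARP14, around ZC3HAV1 and around PARP12; red points are members. The members lie between 1.87 and 2.94, while their neighbours lie between −0.65 (TBXAS1, did not pass) and 0.23 (MKRN1).

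ZC3HAV1, also called ZAP or PARP13, is an inactive PARP that binds CpG-rich viral RNA and leads to its decay. It had 23.1, 21.5 and 18.2 CPM in the control libraries and 132, 129 and 120 CPM in the knockdown libraries, and replicate 3 was the lowest in both groups. The log2 fold change was 2.58 (SE 0.0654, edgeR adjusted p = 2.47e-24). The gene (ENSG00000105939, chromosome 7, 139043520 to 139109719, minus strand) makes a long form with the PARP domain and a short form without it, which counts per gene cannot separate. Its paralog ZC3HAV1L, 7.49 kb away, did not pass (14.48 to 12.42 CPM, log2 fold change −0.24, edgeR adjusted p = 0.106).

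Of 8 tested partners of ZAP, 4 were higher, 1 was lower and 3 did not pass. Their median on the log2 scale was 0.07, against 0.00 over all tested genes, of which 15.3% were higher and 18.1% lower. TRIM25, a ubiquitin ligase that ZAP needs for its antiviral activity, rose from 48.87 ± 2.90 to 196.0 ± 9.86 CPM (log2 fold change 2.01, edgeR adjusted p = 5.85e-24). KHNYN, a nuclease partner of ZAP, EXOSC7, an exosome subunit, and RIOK3 were higher by 0.13 to 0.20 on the log2 scale. DHX30, an RNA helicase, fell by 0.12.

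PARP12 is a single-unit transferase with zinc fingers of the ZAP type and is known to restrict RNA viruses. It lies on the same arm of chromosome 7 (ENSG00000059378, 140023744 to 140063721, minus strand). In control it was the least abundant member, at 4.75, 4.91 and 5.32 CPM, and in knockdown it had 36.4, 31.0 and 35.0 CPM. The log2 fold change was 2.78 (SE 0.1157, edgeR adjusted p = 1.13e-18). Control counts were 55, 43 and 38, and a count of 38 carries a counting error of 16.2%. The log2 ratio of PARP12 to ZC3HAV1 was −2.06 ± 0.259 in control and −1.90 ± 0.143 in knockdown, a difference of 0.164 that is smaller than the control SD (exact permutation test, two-sided, p = 0.5, adjusted over 5 tests p = 0.625).

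PARP10, a single-unit transferase first found as a partner of MYC, had 6.99, 5.83 and 5.88 CPM in control and 32.7, 26.4 and 36.3 CPM in knockdown. Its knockdown libraries spread the most of the 6 rising genes, with a coefficient of variation of 15.7%, and they did not overlap the control libraries. The log2 fold change was 2.33 (SE 0.126, edgeR adjusted p = 1.24e-15). The gene (ENSG00000178685) shares 8.64% of its exon bases with genes on the opposite strand. GRINA, the neighbour with most of this overlap, rose from 157.4 to 180.7 CPM (log2 fold change 0.21, edgeR adjusted p = 0.00151), while PARP10 gained 25.56 CPM. How many of these reads lie in the shared bases was not tested.

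PARP1 and PARP2, which act at DNA breaks, did not pass the test. PARP1 (ENSG00000143799, chromosome 1, 226360691 to 226408079, minus strand) was the most abundant member, at 357, 352 and 368 CPM in control and 347, 350 and 344 CPM in knockdown. The groups did not overlap, but no call was made (log2 fold change −0.05, 95% interval −0.13 to 0.03, edgeR adjusted p = 0.391). PARP2 (ENSG00000129484, chromosome 14, 20343582 to 20357905, plus strand) had 51.1, 48.3 and 44.6 CPM in control and 47.6, 45 and 44.2 CPM in knockdown, and these ranges overlap. Its log2 fold change was −0.08 (95% interval −0.21 to 0.04, edgeR adjusted p = 0.33). The log2 ratio of PARP2 to PARP1 was −2.91 ± 0.125 in control and −2.93 ± 0.0554 in knockdown (exact permutation test, two-sided, p = 0.9).

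Genes that work with PARP1 and PARP2 in strand break repair changed in both directions. Of 9 tested, 3 were higher and 5 lower, beside 15.3% and 18.1% of all tested genes. The median log2 fold change of the 9 was −0.18, against 0.00 over all tested genes. APLF, which binds ADP-ribose chains at breaks, fell from 9.124 ± 0.616 to 5.603 ± 0.722 CPM (log2 fold change −0.70, edgeR adjusted p = 0.0005). TDP1, which removes topoisomerase adducts, fell from 66.03 ± 2.73 to 53.56 ± 1.31 CPM. Ligase LIG3 and the sliding clamp PCNA each fell by 0.18 on the log2 scale. Polymerase POLB rose from 29.72 ± 1.35 to 36.09 ± 2.48 CPM, and XRCC1 and APTX were higher by 0.15 and 0.22.

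PARP8 and PARP11 were not higher. PARP8 (ENSG00000151883, chromosome 5, 50665899 to 50846522, plus strand), a single-unit transferase that is little studied, had 40.6, 40.9 and 44.7 CPM in control and 34, 34 and 35.3 CPM in knockdown. It fell by 0.28 on the log2 scale (SE 0.0676, edgeR adjusted p = 0.00175), with no overlap between groups. The fall was smaller than 1.5-fold, and a test against that fold did not call it. PARP11 (ENSG00000111224, chromosome 12, 3791047 to 3873448, minus strand), a single-unit transferase known to dampen the interferon receptor, had 53.4, 52.2 and 47.8 CPM in control and 49.7, 48.1 and 41.1 CPM in knockdown. These ranges overlap (log2 fold change −0.15, SE 0.0677, edgeR adjusted p = 0.0788). Without knockdown replicate 1 PARP11 was called lower (log2 fold change −0.21, edgeR adjusted p = 0.0318), as it was with the replicate number as a block (edgeR adjusted p = 0.0492).

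None of the 7 other PARP family genes that could be tested passed in either direction. Their log2 fold changes ran from −0.12 (PARP3 and TIPARP) to 0.12 (PARP4). TIPARP, a single-unit transferase induced by the aryl hydrocarbon receptor, had 56.98 ± 1.26 CPM in the control libraries and 52.04 ± 4.01 in the knockdown libraries (edgeR adjusted p = 0.112). The tankyrases TNKS and TNKS2, which build chains on telomere and Wnt pathway proteins, had log2 fold changes of −0.08 and 0.10 (edgeR adjusted p = 0.138 and 0.0773).

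**Figure D3:**
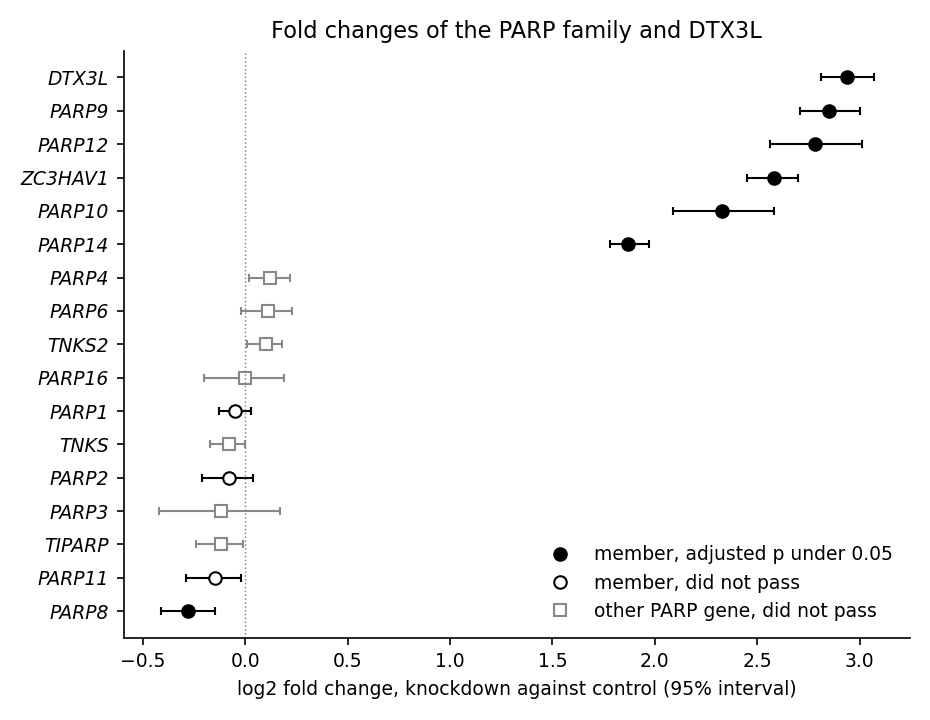
Log2 fold change with its 95% interval for the 10 members (circles) and 7 other PARP family genes (squares), filled where adjusted p was under 0.05. The 6 rising members lie at 1.87 or above and the other 11 genes between −0.28 and 0.12.

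To compare levels between genes, CPM were divided by the kilobases of annotated exon of each gene. This length joins the exons of all transcripts, and the order of the genes can depend on it. For PARP2 it is 4096 bases and the longest transcript 1980, while for DTX3L both are 5868. In control the order of the members from the lowest was PARP12 (0.795 ± 0.0472 CPM per kilobase), PARP10, PARP9, ZC3HAV1, DTX3L, PARP8, PARP14, PARP11, PARP2 and PARP1 (50.1 ± 1.15). ZC3HAV1 at 2.54 ± 0.300 and DTX3L at 2.84 ± 0.200 lay within their spread of each other. In knockdown, with this length, DTX3L at 21.9 ± 1.33 and PARP14 at 19.9 ± 0.740 were the highest members after PARP1, which had 48.4 ± 0.352. By the longest transcript, 8437 bases for PARP14 and 6769 for PARP9, PARP14 and PARP2 would lie above DTX3L, and PARP2 above PARP9. With the joined exons the rest of the order was as follows. ZC3HAV1 at 15.4 ± 0.765 came next, and PARP9 at 11.8 ± 1.1 lay within its spread of PARP2 at 11.1 ± 0.435. PARP12 and PARP10, at 5.43 ± 0.451 and 5.27 ± 0.829, were below PARP11 and did not differ beyond their spread.

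Over 17 PARP family genes, the 5 that rose held 6.57 ± 0.237% of the summed per-length level in control and 26.5 ± 0.858% in knockdown. These 5 were picked by their rise, so the 2 shares are a description. The share of PARP1 was 28.7%, 28.2% and 29.5% in the control libraries and 21.9%, 22.9% and 21.8% in the knockdown libraries. This difference of −6.63 percentage points is a description too, since the same sum holds the 5 genes that rose, and the level of PARP1 itself did not pass the test. The 6 rising members together summed to 120.4 ± 4.03 CPM in the control libraries and 635.6 ± 32.1 in the knockdown libraries.

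**Figure D4:**
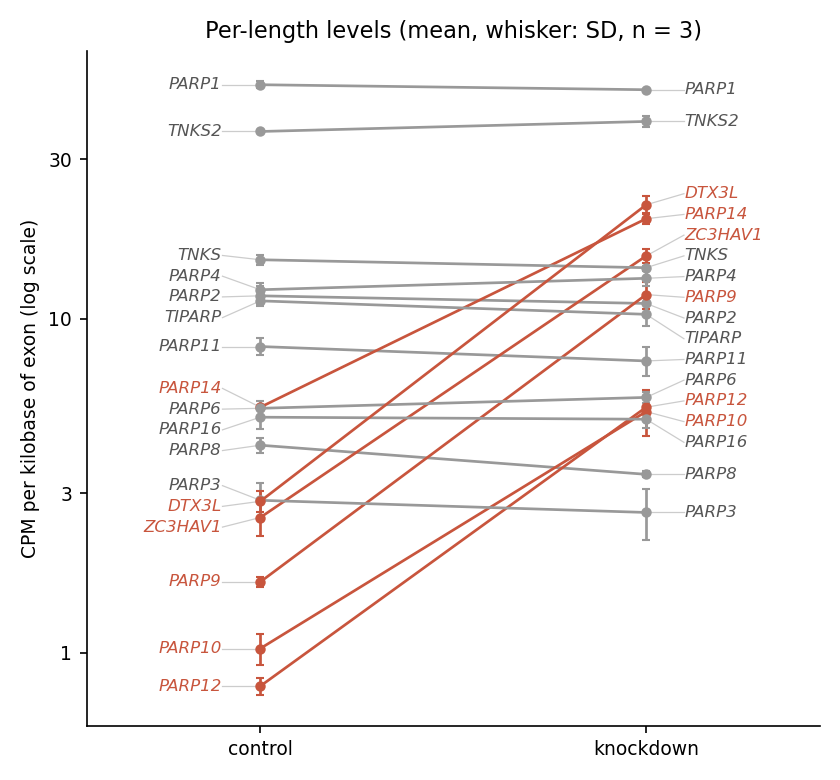
Level per kilobase of annotated exon (log scale) in control and knockdown for 16 PARP family genes and DTX3L, as means with SD (n = 3); red lines are the rising members and PARP15, at 2 counts in all, is left out. DTX3L moves from 2.84 to 21.9 and PARP14 from 5.43 to 19.9, while PARP1 stays the highest at 50.1 and 48.4.

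Transcription factors of the interferon response differed in the same libraries. IRF9, the DNA-binding part of the complex, rose from 10.31 ± 0.696 to 92.28 ± 9.32 CPM (log2 fold change 3.17, edgeR adjusted p = 1.46e-23). STAT2 went from 76.80 ± 4.11 to 93.31 ± 4.27 CPM (log2 fold change 0.29, edgeR adjusted p = 4.94e-05). IRF7 and IRF1 rose by 2.40 and 1.48 on the log2 scale. Of the receptor side, TYK2, a kinase bound to the interferon receptor, fell from 57.91 ± 2.51 to 40.70 ± 2.80 CPM (log2 fold change −0.50, edgeR adjusted p = 2.16e-07), and JAK1, IFNAR1 and IFNAR2 did not pass.

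The rising members were set beside 34 tested interferon-stimulated genes outside the members, all of which were higher. Of the 34, 10 had under 1 CPM in control and passed the filter on low counts through the knockdown libraries, so they had to differ. Over the other 24 the median log2 fold change was 3.77 and the median control level 7.07 CPM. Of these 24, 14 had a larger log2 fold change than DTX3L and 22 a larger one than PARP14. The control levels of PARP12 (4.995 CPM) and PARP10 (6.235 CPM) lay below that median level, and those of PARP9, DTX3L, ZC3HAV1 and PARP14 lay above it. The genes of that list were picked as known responders, and earlier results of these data were known.

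**Figure D5:**
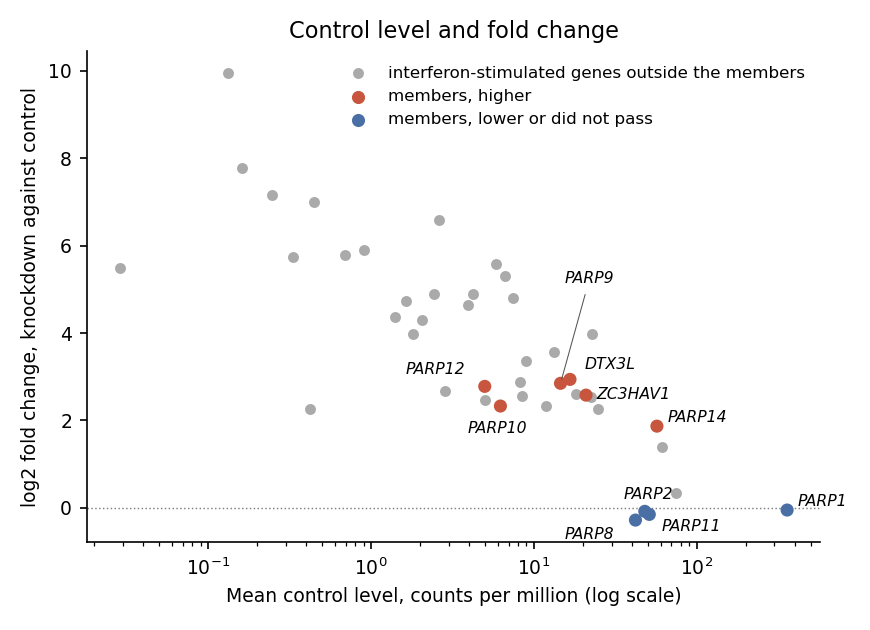
Log2 fold change against mean control level (log scale) for the members and for 33 of the 34 interferon-stimulated genes, leaving out OASL, which had no control count. The 6 rising members (red) lie between 4.995 and 56.98 CPM in control and 1.87 and 2.94 in log2 fold change; grey points at the far left, under 1 CPM in control, passed the filter through the knockdown libraries.

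For each rising member the genes with the most similar profile were sought outside the 10 members, among genes with a mean of 5 CPM or more over all 6 libraries, by the root mean square distance over the 6 libraries of log2 CPM relative to the control mean. Among these, PARP9 was closest to LGALS3BP, a secreted glycoprotein (distance 0.0475), and HELZ2, a helicase (0.191). DTX3L was closest to LGALS3BP (0.114) and IRF9 (0.200). Between members, PARP9 lay 0.105 from PARP12 and 0.109 from DTX3L, and DTX3L lay 0.179 from PARP12. PARP14 was closest to TRIM25 (0.108), PLSCR1, a phospholipid scramblase (0.136), and CCDC113 (0.139), which at 3.118 CPM in control and 11.04 CPM in knockdown reached the minimum mean only through the knockdown libraries. PARP10 was closest to the helicases DDX60L (0.128) and DDX60 (0.129) and to IRF7 (0.149). Outside the members, PARP12 and ZC3HAV1 were both closest to HELZ2 (0.134 and 0.154), followed by LGALS3BP for PARP12 (0.140) and by SAMHD1, a nucleotide triphosphatase, for ZC3HAV1 (0.161). With 2 groups this measure mostly reads the size of the rise.

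Of 8 tested genes in a list of enzymes that take ADP-ribose off again and their relatives, 2 were higher and 6 did not pass. The median of the 8 was 0.10 on the log2 scale, against 0.00 over all tested genes, of which 15.3% were higher. OARD1, which removes ADP-ribose from acidic residues, rose from 39.73 ± 3.79 to 47.06 ± 2.87 CPM (log2 fold change 0.23, edgeR adjusted p = 0.0129), and the hydrolase NUDT16 rose from 92.67 ± 2.11 to 103.3 ± 4.82 CPM (0.15, edgeR adjusted p = 0.0133). PARG, the main enzyme that degrades the chains, did not pass, at 82.16 ± 0.467 and 77.98 ± 1.12 CPM (log2 fold change −0.08, edgeR adjusted p = 0.231). MACROD1 and MACROD2, macrodomain hydrolases, did not pass.

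No other tested Deltex ligase was higher. DTX4 fell from 111.4 ± 3.84 to 96.53 ± 2.83 CPM (log2 fold change −0.20, edgeR adjusted p = 0.00106). DTX2 and DTX3 did not pass, at log2 fold changes of 0.12 and −0.12. The ubiquitin ligases RNF146 and CHFR, which recognise ADP-ribose chains, fell by 0.17 and 0.22 on the log2 scale. Over the 5 tested ligases of this list 3 were lower, at a median of −0.17, beside 18.1% of all tested genes lower.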

How the data were processed

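Per the labels' protocols, RNA of each library was prepared with a strand-preserving (directional) kit. Trim Galore 0.6.6, STAR 2.7.10a, bedtools and hg38 appear in the submitters' processing notes. How reads were counted, with which strand setting and annotation, is not given in the sources used here. For each of the 6 libraries the authors deposited whole-number read counts per gene symbol, not normalised.

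Here the 3 knockdown libraries were compared with the 3 control libraries in edgeR 4.0.16 (R 4.3.3), with filterByExpr (13632 genes kept), TMM scaling (factors 0.9797 to 1.0151), the quasi-likelihood test with no covariate, and Benjamini-Hochberg adjustment over all tested genes. CPM are counts over the TMM-adjusted library size, as mean ± SD. The standard error is the log2 fold change over the square root of F, and 95% intervals come from it. Taking 3 counts as the limit, a count of 0 leaves room for 0.259 to 0.42 CPM depending on the library, for counting error only. Log ratios and shares were compared by exact permutation over libraries (SciPy 1.17.1). Exon lengths and coordinates are from GENCODE v29, in which 94.4% of tested symbols were found. Log2 CPM for profiles used a prior count of 2.

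Pairs of replicates differed by 1.23 to 1.994 times sampling noise (chi-square per degree of freedom). These values do not show whether the replicates were separate cultures. Each library was counted once. The fit was tested on simulated data.

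The members and gene lists were chosen with earlier results of these data known. The text names all members, called genes of each list first, the 3 nearest tested genes on each side of a member and the 3 genes of most similar profile to each rising member. COL1A1, MSI1, GRINA, EXOSC4, SLC37A3, MKRN1, CCDC113 and list genes that did not pass were singled out with their values in view. Alternatives were library-size, upper-quartile and RLE scaling, other filters, DESeq2 1.42.0, limma-voom (limma 3.58.1), a replicate block, leaving out each library, a 1.5-fold threshold and an adjusted p under 0.01.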

Additional observations from a re-analysis of the deposited data

How the results depend on the processing

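The 6 rising members were called higher under all 16 alternatives, with log2 fold changes of 1.86 to 1.90 for PARP14 and 2.89 to 3.01 for DTX3L at the extremes. PARP1 and PARP2 were called under none. The number of members called lower was 0 with the 1.5-fold threshold, where PARP8 was lost, and 2 in the fit with a replicate block, where PARP11 was added; leaving out 1 library gave 1 to 2. The numbers of all tested genes called higher and lower were 2458 and 2790 with the block, 2505 and 2188 with library-size scaling (more higher than lower, against 2084 and 2461 as reported), 112 and 52 with the 1.5-fold threshold, 1179 and 1698 by DESeq2 and 1224 and 1719 at an adjusted p under 0.01. Leaving out 1 library gave 1606 to 1964 genes higher and 1949 to 2333 lower. Deviations from the group mean correlated over genes at 0.0792, 0.00548 and 0.0713 for same-numbered libraries 1 to 3. For libraries of unlike number the correlations ran from −0.104 to 0.0387, the highest for control replicate 2 with knockdown replicate 1. These small values do not settle whether the numbers pair the libraries. The log2 ratio of PARP2 to PARP1 differed by −0.0214, and by −0.0919 to 0.0283 on leaving out 1 library, with the sign reversed at 0.0283 without control replicate 1. With the longest transcript as length the PARP1 share differed by −7.46 percentage points. Low control counts limit PARP10 and PARP12 most.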

Other observations

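Genes that make and spend NAD+, the substrate of the PARP enzymes, moved in both directions. Of 8 tested genes of NAD+ synthesis and transport, 4 were higher and 1 lower, with a median log2 fold change of 0.09. Over all tested genes 15.3% were higher and 18.1% lower. NMNAT2, the axonal enzyme that makes NAD+ from its mononucleotide, fell from 20.54 ± 0.764 to 11.81 ± 0.183 CPM (± is the SD, n = 3; log2 fold change −0.80, edgeR adjusted p = 3.71e-07). NADSYN1, the last step from nicotinic acid, rose from 35.44 ± 1.72 to 46.62 ± 2.93 CPM (log2 fold change 0.40, edgeR adjusted p = 2.38e-05). NAMPT, the rate-limiting enzyme of the salvage route, rose by 0.12, and NMRK1 and the mitochondrial carrier SLC25A51 by 0.56 and 0.23 on the log2 scale.

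Of 11 tested genes in a list of other NAD+ users and related enzymes, 4 were higher and 1 lower. Their median log2 fold change was 0.11. The shares over all tested genes were again 15.3% higher and 18.1% lower. SARM1, the NAD+ hydrolase of degenerating axons, fell from 104.6 ± 3.74 to 79.66 ± 5.50 CPM (log2 fold change −0.39, edgeR adjusted p = 4.81e-07), beside the fall of NMNAT2, which is known to hold SARM1 inactive. The sirtuins SIRT7, SIRT5 and SIRT6 were higher by 0.57, 0.26 and 0.22, while SIRT1, SIRT2 and SIRT3 did not pass. BST1, an ectoenzyme related to CD38, was higher at a low level, 1.40 ± 0.374 CPM in control and 2.69 ± 0.979 CPM in knockdown (log2 fold change 0.97, edgeR adjusted p = 0.0133). CD38 had no counts in control and 5 over the knockdown libraries.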
